A study of Mus musculus with 11 samples.

Results

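OTX2 binding was compared between mouse epiblast stem cells (EpiSCs) kept in activin and the same cells after activin removal, as the pair of OTX2 ChIP-seq peak lists deposited for these cultures. The EpiSC list held 103281 peaks and the activin-free list 114041, out of 1004445 peaks in the 10 lists of the series, which covers 5 transcription factors (TFs) in both cultures. Peaks on chromosomes 1 to 19 and X were kept, which left 103109 EpiSC peaks and 113831 activin-free peaks and set aside 172 and 210. A peak was called shared when it overlapped a peak of the other list by at least 1 bp, and otherwise EpiSC-only or activin-free-only. Each peak was then described by its score, width, GC content, distance from transcription start sites (TSSs) and nearest protein-coding gene.

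Both libraries came from EpiSCs of a 129/Sv background grown without feeder cells in N2B27-type medium with 10 ng/ml Fgf2, and carried a transiently expressed, biotin-tagged OTX2. The EpiSC library was made in 20 ng/ml activin, and the activin-free library after 18 h without it. The tagged OTX2 was expressed from a CAG-promoter vector together with the biotin ligase BirA, cells were fixed 24 h after an 8 h transfection, and chromatin of about 150 bp was pulled down on streptavidin. There was 1 library per culture and no replicate, so no test was possible, and the intervals given with percentages are 95% Wilson intervals that cover counting error only. The pulldown reports the tagged OTX2, so a difference in the amount of tagged protein, in read depth or in library composition cannot be told apart from an effect of activin.

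OTX2 is a homeodomain TF of the bicoid class, which recognises TAATCC-type sequences, and is known for its role in the epiblast and in the anterior neural plate. Activin stands in for Nodal, a TGFβ-family ligand that signals through type I and type II receptors to SMAD2 and SMAD3 and, with FGF, holds EpiSCs in the epiblast state. When this signal is withdrawn, EpiSCs move towards anterior neural plate derivatives, in which OTX2 continues to be expressed.

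The sequences below reach 100 bases to either side of the midpoints of example peaks of each class, on the plus strand of mm9, with TAATCC or its reverse complement GGATTA in capitals. The first set is from shared peaks that hold the motif, at loci of the epiblast and neural plate, with the score in EpiSCs followed by that without activin in the name. In the names, intron means an intron of any annotated gene, not always of the gene named. The Pax6 peak upstream of the most 5′ TSS, for one, cannot lie in an intron of Pax6.
Fgf5, intron, 1.73 kb downstream of the TSS, scores 132.6 and 102.2, chr5:98684828-98685028: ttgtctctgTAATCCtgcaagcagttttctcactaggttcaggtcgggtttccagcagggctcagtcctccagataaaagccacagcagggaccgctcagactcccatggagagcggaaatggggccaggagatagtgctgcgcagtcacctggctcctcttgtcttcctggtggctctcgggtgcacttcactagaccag
Pax6, intron, 6.68 kb upstream of the most 5′ TSS, scores 79.9 and 72.1, chr2:105502274-105502474: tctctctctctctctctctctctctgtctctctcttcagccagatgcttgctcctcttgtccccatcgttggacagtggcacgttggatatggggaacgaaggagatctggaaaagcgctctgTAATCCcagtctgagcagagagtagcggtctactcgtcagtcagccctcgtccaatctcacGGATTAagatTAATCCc
Mycn, intergenic, 45.4 kb downstream of the TSS, scores 196.7 and 327.8, chr12:12903199-12903399: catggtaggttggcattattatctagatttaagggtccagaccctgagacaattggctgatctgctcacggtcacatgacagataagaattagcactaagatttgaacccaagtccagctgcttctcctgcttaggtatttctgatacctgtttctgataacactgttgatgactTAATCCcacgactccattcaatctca
The Pax6 window holds 3 copies, and each of the other windows of this set holds 1.
The second set is from peaks found in a single list that hold the motif.
Nanog, EpiSC-only, intergenic, 22.0 kb upstream, score 51.2, chr6:122635408-122635608: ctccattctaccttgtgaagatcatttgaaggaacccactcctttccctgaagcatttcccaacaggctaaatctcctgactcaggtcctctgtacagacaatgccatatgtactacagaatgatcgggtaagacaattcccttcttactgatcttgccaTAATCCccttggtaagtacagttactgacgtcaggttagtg
Sall4, EpiSC-only, intergenic, 7.34 kb upstream, score 67.3, chr2:168600686-168600886: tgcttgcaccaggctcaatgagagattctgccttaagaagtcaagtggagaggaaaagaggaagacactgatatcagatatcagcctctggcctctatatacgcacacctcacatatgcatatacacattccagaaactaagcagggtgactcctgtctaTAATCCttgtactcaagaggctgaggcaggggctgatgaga
Pax6, activin-free-only, intron, 53.5 kb downstream of the most 5′ TSS, score 130.2, chr2:105562465-105562665: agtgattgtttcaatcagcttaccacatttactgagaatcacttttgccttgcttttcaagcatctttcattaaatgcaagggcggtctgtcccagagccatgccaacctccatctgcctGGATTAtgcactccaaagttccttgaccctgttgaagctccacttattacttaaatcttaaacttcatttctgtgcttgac
The last set has 1 high-scoring peak of each class with no TAATCC within 100 bp of the midpoint, of which the Otx2 peak has the highest score of its class and is far above the rest of it.
Sall4, shared, intron, 4.32 kb downstream, scores 1633.5 and 2188.3, chr2:168589025-168589225: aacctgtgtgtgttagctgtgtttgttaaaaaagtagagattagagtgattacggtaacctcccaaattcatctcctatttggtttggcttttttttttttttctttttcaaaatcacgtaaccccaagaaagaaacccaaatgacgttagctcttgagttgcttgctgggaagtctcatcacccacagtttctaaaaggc
Ubfd1, EpiSC-only, intron, 4.97 kb downstream, score 311.9, chr7:129217282-129217482: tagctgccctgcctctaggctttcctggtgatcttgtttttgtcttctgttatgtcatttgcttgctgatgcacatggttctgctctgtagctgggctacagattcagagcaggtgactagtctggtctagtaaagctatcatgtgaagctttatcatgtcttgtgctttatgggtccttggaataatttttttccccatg
Otx2, activin-free-only, intergenic, 85.7 kb upstream, score 3076.8, chr14:49372914-49373114: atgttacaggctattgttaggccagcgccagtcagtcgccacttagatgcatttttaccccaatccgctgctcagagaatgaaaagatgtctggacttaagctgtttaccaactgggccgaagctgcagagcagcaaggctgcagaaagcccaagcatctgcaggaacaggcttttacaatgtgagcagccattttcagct
The Sall4 and Otx2 peaks without TAATCC at their midpoint have higher scores than any of the peaks with it in the other 2 sets. Their windows do hold related sequences, which are ranked further below. The Sall4 window holds GATTAG, the reverse complement of CTAATC, and the Otx2 window holds TAAGCT. The last set was picked for high scores, so the sets do not show how the motif relates to score.

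Most EpiSC peaks of OTX2 had an activin-free counterpart, and fewer of the activin-free peaks had an EpiSC counterpart. Of the 103109 EpiSC peaks, 80509 (78.1%, interval 77.8 to 78.3) overlapped an activin-free peak. Of the 113831 activin-free peaks, 76827 (67.5%, interval 67.2 to 67.8) overlapped an EpiSC peak. These left 22600 EpiSC-only and 37004 activin-free-only peaks. Merged across lists, the peaks formed 135634 sites, of which 76030 (56.1%) were present in both cultures. The activin-free list also had higher scores and wider peaks, with a median score of 115.2 against 99.2 and a median width of 1034 against 803 bp, and 5.74% of its peaks were wider than 2000 bp against 2.10% in EpiSCs.

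In 71465 sites where a peak of each list overlapped just the other, the positions of OTX2 were close. The midpoints lay a median of 70 bp apart, and 88.1% lay within 200 bp. The activin-free peak was the wider in 84.3% of these pairs, with a median width ratio of 1.24, and had the higher score in 68.9%, with a median score ratio of 1.28 (quartiles 0.918 and 1.80). Across the pairs, Spearman's rho between both scores was 0.670. The pairs share chromatin accessibility and base composition, so that rho is a description of agreement and not a test.

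Whether a peak was shared depended on its score in its own list. In EpiSCs, 99.97% of peaks in the highest score decile (281.9 or more) were shared, 10307 of 10310, against 77.3% in the sixth and 48.0% in the lowest decile. In the activin-free list these values were 99.8%, 62.6% and 32.4%. Both lists fell at each decile, and the activin-free list was below the EpiSC list in every decile. Accordingly most peaks of a single list were weak. The EpiSC-only peaks had a median score of 64.7 and a maximum of 340.5, and 87.2% scored under 100. The activin-free-only peaks had a median of 73.3 and a maximum of 3076.8, with 5 above 500, 74.4% of them scored under 100, and 1053 scored at least 200 against 78 of the EpiSC-only peaks. MACS reports a peak only above a score of 50, so a weak site can be absent from a list while having reads below that threshold.

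**Figure D1:**
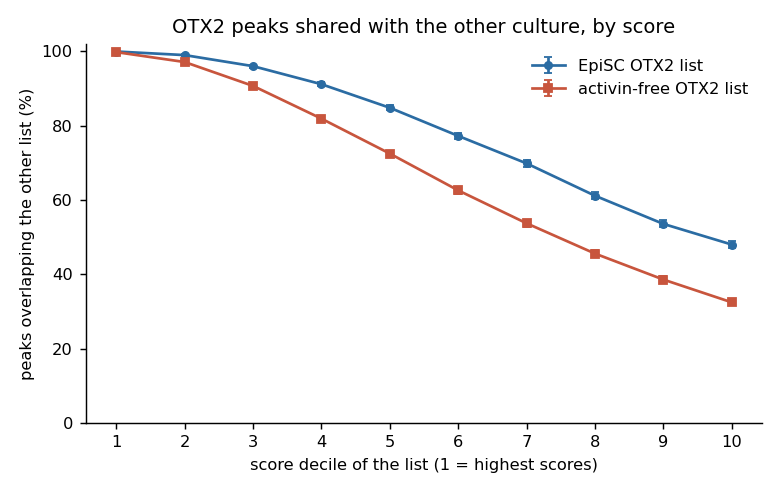
Percentage of OTX2 peaks that overlap a peak of the other culture (vertical axis) in each score decile of the list (horizontal axis, 1 holds the highest scores), for the EpiSC list (circles) and the activin-free list (squares), with 95% Wilson intervals. The EpiSC line falls from 99.97% to 48.0% and the activin-free line from 99.8% to 32.4%, and the activin-free line is the lower in each decile.

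The lists differed in base composition. The 100 bp on either side of the midpoint had a median GC content of 43.3% in shared peaks, 46.3% in EpiSC-only peaks and 38.8% in activin-free-only peaks. Windows 1000 bp to either side shifted in the same order, with medians of 43.0%, 45.5% and 40.6%. Relative to those flanks, the midpoints of EpiSC-only peaks were higher in GC and those of activin-free-only peaks were lower. The number of activin-free peaks per EpiSC peak fell from 2.69 where the window GC was at most 35% to 1.03 at 40 to 45% and 0.541 above 55%. The same order was found in the strength of shared sites. The median ratio of the activin-free to the EpiSC score fell from 1.73 at a window GC of at most 35% to 0.829 above 55%.

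Sharing followed score and GC at the same time. In the lowest score quintile of the EpiSC list, 79.9% of peaks with at most 35% GC were shared against 13.9% above 55% GC. In the lowest quintile of the activin-free list the order was turned around, with 12.3% and 81.2%. In the highest quintile at least 95.02% of peaks were shared in each GC class of both lists. Sequencing libraries differ in their recovery of GC-rich and AT-rich fragments, and with 1 library a culture this cannot be told apart from a change of OTX2 binding.

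**Figure D2:**
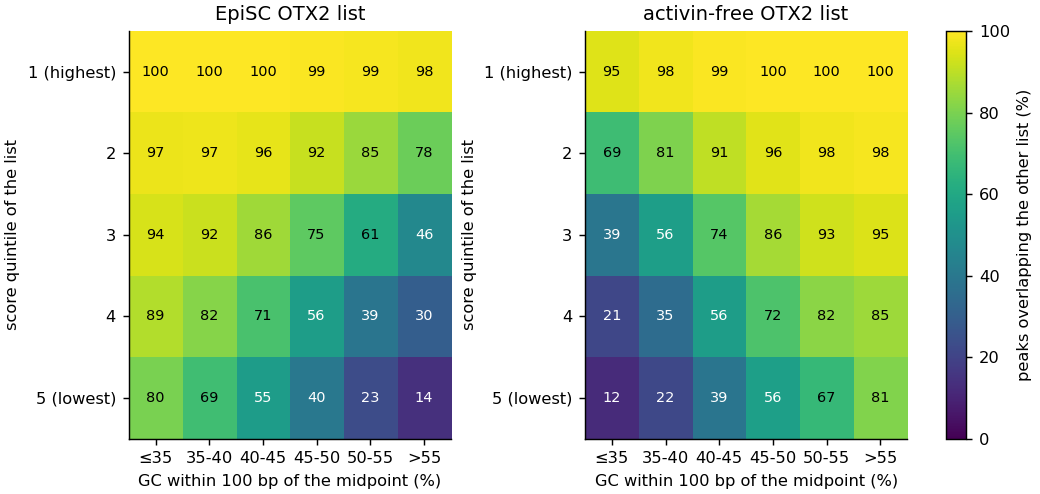
Percentage of OTX2 peaks overlapping the other list, printed in each cell and coloured from 0 to 100%, by GC content of the 100 bp on either side of the midpoint (horizontal) and score quintile of the list (vertical, 1 holds the highest scores). In the EpiSC list (left) sharing falls with GC, from 79.9% to 13.9% in the lowest quintile, and in the activin-free list (right) it rises with GC.

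For each TF of the series, the activin-free-only peaks had a lower median GC than the EpiSC-only peaks, and the size of the difference varied. The activin-free-only peaks of POU5F1 had a median GC of 32.3% against 41.3% in its EpiSC-only peaks, and for POU3F1 these values were 30.4% and 34.3%. For SOX2 the values were 37.8% and 38.3%, and for ZIC2 53.2% and 54.2%. OTX2, with 38.8% and 46.3%, had a difference of the size of that of POU5F1. The share of the EpiSC list that was found again without activin was 78.1% for OTX2, 78.9% for ZIC2, 77.6% for SOX2, 82.6% for POU3F1 and 98.3% for POU5F1. The share of the activin-free list found in EpiSCs ranged more widely, with 67.5% for OTX2 between 47.1% for POU5F1 and 91.2% for ZIC2.

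OTX2 peaks found only in the activin-free list lay farther from genes. The median distance from the nearest TSS was 13.0 kb for shared, 9.14 kb for EpiSC-only and 25.7 kb for activin-free-only peaks. Within 1 kb of a TSS lay 8.13% (interval 7.94 to 8.32) of shared, 11.7% (11.3 to 12.1) of EpiSC-only and 3.81% (3.62 to 4.01) of activin-free-only peaks. Introns held 48.0%, 46.6% and 42.0% of the midpoints, and intergenic sequence 41.2%, 38.7% and 52.2%. Coding exons held under 1% in each class (0.740%, 0.951% and 0.516%). Among peaks with a window GC of 40 to 45%, an alternative added after the values were seen, the median distances were 14.3, 10.8 and 25.5 kb and the shares within 1 kb 6.86%, 8.81% and 3.77%. The order of the classes was thus the same within this band of window GC as over all peaks. The band does not fix the GC of the surroundings. Windows 1000 bp to either side of these peaks still had medians of 42.8%, 44.0% and 41.3%, so regional GC was not set aside.

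The TAATCC sequence was centred on the peaks of each class. It occurred within 100 bp of the midpoint of 24.0% (interval 23.7 to 24.3) of shared peaks, 22.2% (21.7 to 22.8) of EpiSC-only and 20.7% (20.2 to 21.1) of activin-free-only peaks. Windows of the same length 1000 bp to either side held it in 9.02%, 9.02% and 8.17%, so the share at the midpoint was 2.66, 2.47 and 2.53 times that of the flanks. In 50-bp bins, shared peaks held the sequence in 7.27% just upstream of the midpoint and in 2.50% about 725 bp upstream. EpiSC-only peaks reached 6.85% and activin-free-only peaks 5.78%. The intervals of the 3 classes did not overlap with shared sites taken from the EpiSC list. Taken from the activin-free list, shared peaks held the sequence in 22.4% (22.1 to 22.7), which overlaps the interval of EpiSC-only peaks. With scores of at least 100 in both lists, the values were 22.46% (22.06 to 22.86), 21.7% (20.87 to 22.56) and 21.43% (20.92 to 21.95), and the EpiSC-only interval overlapped both others.

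**Figure D3:**
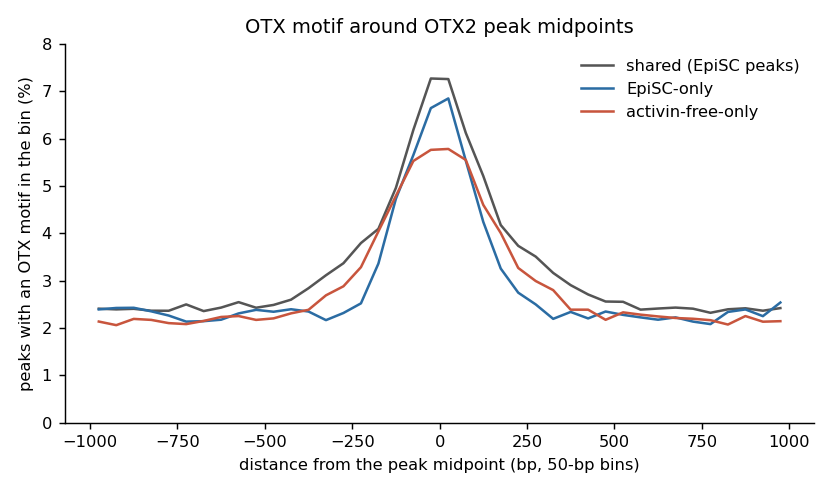
Percentage of OTX2 peaks with TAATCC or GGATTA in each 50-bp bin (vertical axis) by distance of the bin from the peak midpoint (horizontal axis, bp) for shared peaks taken from the EpiSC list and for EpiSC-only and activin-free-only peaks. All 3 lines peak at the midpoint, at 7.27%, 6.85% and 5.78%, and level off within 500 bp of it.

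TAATCC is also part of the abundant B1 repeat, where CAGC follows it. Copies followed by CAGC were found at 1.89% of shared midpoints and 1.958% of their flanks, at 2.76% and 2.38% for EpiSC-only peaks, and at 0.857% and 1.19% for activin-free-only peaks. Their ratio to the flanks was 0.963, 1.16 and 0.721. Without them, the motif was at 22.4%, 19.9% and 19.9% of midpoints, and its ratio to the flanks was 3.13, 2.94 and 2.83. The share of EpiSC-only and activin-free-only peaks with the motif, which differed with all copies counted, was then the same to the first decimal.

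Among all 2080 hexamers, counted with their reverse complements, TAATCC ranked second by the ratio of midpoint to flanks in each class, and CTAATC ranked first. The ratio of CTAATC was 2.87 in shared, 2.86 in EpiSC-only and 2.66 in activin-free-only peaks. TAATCT ranked next in shared and activin-free-only peaks. TAAGCT was among the first 7 in each class, at ratios of 2.18 to 2.37, and TAAGCC in shared and EpiSC-only peaks, at 2.27 and 2.41. These are variants of the sequence that OTX and related bicoid-class homeodomain proteins bind. The ranking was made after the values for TAATCC had been seen. A dimer-type sequence, TAATC and ATTA with 2 bases between them, was rare, at 0.473% of shared, 0.314% of EpiSC-only and 0.703% of activin-free-only midpoints, and was 3.40, 2.58 and 3.61 times as frequent as in the flanks. GGTAAT, an alternative OTX2 sequence, was at 7.52%, 6.15% and 7.92%, or 1.39, 1.22 and 1.35 times the flanks.

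Over all peaks, midpoint shares of a ZIC and a POU sequence differed more between classes, in relative terms, than that of the OTX motif. The share of a SOX sequence differed about as much as that of the OTX motif. CAGCAGG, a sequence of ZIC proteins, was at 5.43% of shared, 7.21% of EpiSC-only and 3.35% of activin-free-only midpoints. It was more frequent than in the flanks in shared and EpiSC-only peaks (1.19 and 1.27 times) and less frequent in activin-free-only peaks (0.913 times). The octamer ATGCAAAT, bound by POU proteins, was at 2.07%, 1.52% and 2.55% of midpoints, and 1.66, 1.42 and 1.29 times as frequent as in the flanks. ACAAAG, a SOX sequence, was at 20.5%, 18.6% and 21.8% of midpoints and near the flank level in each class, at 1.15, 1.07 and 1.16 times. The flanks do not fully account for GC content, since the midpoints of the single-list classes differ from them in opposite directions. Among peaks with a window GC of 40 to 45%, CAGCAGG was at 4.66% (interval 4.42 to 4.91) of shared, 5.67% (5.13 to 6.26) of EpiSC-only and 4.44% (4.06 to 4.86) of activin-free-only midpoints, so the class difference was smaller and the shared and activin-free-only intervals overlapped. The octamer was then at 2.08%, 1.90% and 2.42%, with overlapping intervals (1.92 to 2.25, 1.60 to 2.26 and 2.13 to 2.73).

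The peak lists of the other TFs gave a parallel picture of which proteins were found at the OTX2 sites. ZIC2, a zinc finger TF of the epiblast, had a peak of its EpiSC list over 16.0% of shared OTX2 peaks, 24.2% (interval 23.7 to 24.8) of EpiSC-only peaks and 5.26% (5.03 to 5.49) of activin-free-only peaks. POU3F1, a POU-domain TF of the epiblast and neural plate, had the opposite order with 8.32%, 2.54% and 16.8%. SOX2, which pairs with POU factors in pluripotent cells, overlapped 8.64%, 3.77% and 9.14%, and POU5F1 overlapped 5.44%, 2.99% and 6.84%. The lists of activin-free cells gave the same orders, with ZIC2 at 14.3%, 21.2% and 4.67% and POU3F1 at 8.399%, 2.79% and 16.3%. For SOX2 the activin-free lists gave 11.4%, 5.07% and 12.4%. The order of shared and activin-free-only peaks for SOX2 depended on the list that represents the shared sites. With shared peaks taken from the activin-free OTX2 list, EpiSC SOX2 covered 9.56% of shared against 9.14% of activin-free-only peaks, and activin-free SOX2 12.6% against 12.4%. The EpiSC-only peaks had the lowest SOX2 share with either list. They were also the narrowest, with a median width of 679 bp against 847 bp for shared and 903.5 bp for activin-free-only peaks. Whether width accounts for their low SOX2 share was not tested.

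**Figure D4:**
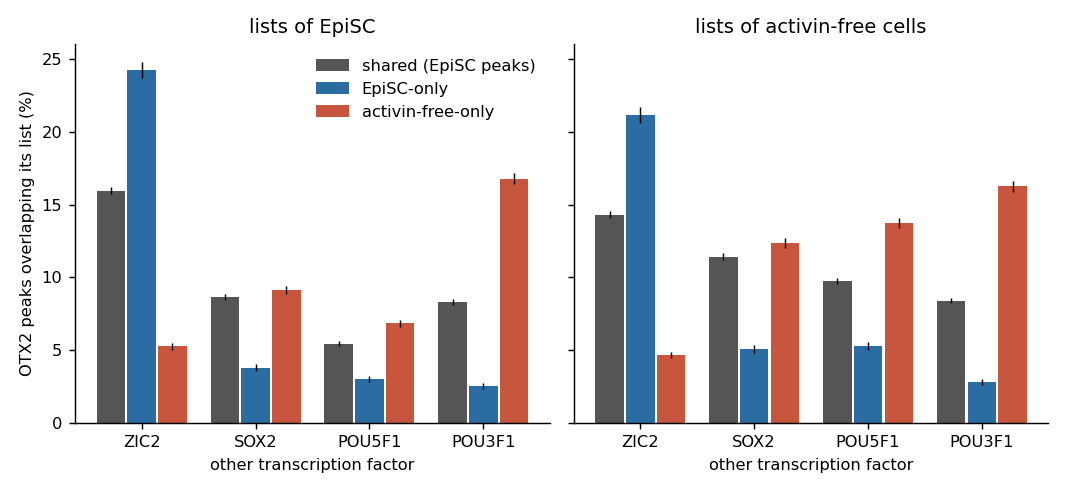
Percentage of OTX2 peaks overlapping a peak of ZIC2, SOX2, POU5F1 or POU3F1 (vertical axis) for shared, EpiSC-only and activin-free-only peaks, using the lists of EpiSCs (left) and of activin-free cells (right), with 95% Wilson intervals. ZIC2 is highest on EpiSC-only peaks (24.2% and 21.2%) and POU3F1 on activin-free-only peaks (16.8% and 16.3%) in both panels.

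GC content moved with these overlaps, since ZIC2 peaks were GC-rich and POU3F1 peaks AT-rich. Among OTX2 peaks with a window GC of 40 to 45%, EpiSC ZIC2 peaks covered 11.6% of shared, 13.0% of EpiSC-only and 5.60% of activin-free-only peaks. EpiSC POU3F1 peaks covered 7.11%, 3.15% and 9.61%. The differences of ZIC2 and POU3F1 between the single-list classes were smaller within this band and kept their direction. With shared peaks taken from the activin-free list, ZIC2 covered 13.6% of shared peaks in the band, above the 13.0% of EpiSC-only peaks. EpiSC SOX2 peaks covered 8.48%, 4.45% and 7.46%, so shared peaks were then above activin-free-only peaks, the reverse of the order over all peaks. POU5F1 covered 4.88%, 3.25% and 5.01%, with overlapping intervals for shared (4.63 to 5.13) and activin-free-only peaks (4.60 to 5.45). Among EpiSC peaks below the median score of the list, ZIC2 covered 10.2% of shared and 22.7% of EpiSC-only peaks.

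By chromosome, the shared share of EpiSC peaks ranged from 73.9% on chromosome 11 to 85.4% on chromosome X. In the activin-free list it ranged from 47.0% on X to 76.4% on chromosome 11. Chromosome X had 1.75 activin-free peaks for each EpiSC peak, 3396 against 1941, while the next highest ratio was 1.23, on chromosome 18. Chromosome 11 had the lowest ratio, 0.921, and the highest median GC of the EpiSC peaks together with chromosome 7, at 44.8%.

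In 1-Mb segments the numbers of peaks in both lists rose and fell together, with Spearman's rho of 0.914 over 2553 segments, a description of segments that share GC content and gene number. There were 1803 segments with more activin-free peaks and 679 with more EpiSC peaks. Their median GC was 40.2% and 45.9%. The log2 ratio of the numbers had a rho of -0.862 with the GC content of the segment and -0.649 with its number of protein-coding gene starts, and adjoining segments are not independent. The segments with the largest excess of EpiSC peaks were 3 gene-rich stretches of chromosome 11, namely chr11:115000001-116000000 (131 EpiSC and 67 activin-free peaks), chr11:69000001-70000000 (136 and 86) and chr11:97000001-98000000 (142 and 94). These hold 42, 59 and 27 protein-coding gene starts. Segments with the largest excess of activin-free peaks were chr15:40000001-41000000 (27 and 67) and chr2:109000001-110000000 (51 and 86). The first holds the start of Zfpm2 alone, and the second holds 6 protein-coding gene starts, namely Bdnf, Ccdc34, Kif18a, Lgr4, Lin7c and Mettl15.

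Nearest genes showed the same division at the level of single loci. The genes with the largest excess of EpiSC-only peaks for which they were nearest were Sox9, Cux1, Mad1l1, Plb1, Ssbp3 and Cacna1a. Sox9, a SOX-family TF of neural crest and cartilage, had 14 EpiSC-only, 1 activin-free-only and 15 shared peaks. Cux1, a homeodomain TF, had 15, 3 and 32. Ssbp3, a partner of LIM-domain binding proteins, had 11, 0 and 7. The EpiSC-only peaks of the other 3 genes numbered 10 or 11, with no activin-free-only peak.

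Genes with the largest excess of activin-free-only peaks were neuronal adhesion and receptor genes that are very long. Nrxn3, a presynaptic neurexin, had 65 activin-free-only and 7 EpiSC-only peaks beside 59 shared ones. Odz2, a teneurin, had 53 and 6, Lrp1b 47 and 2, Cntnap5a 51 and 7, and Lsamp 48 and 5. These 5 genes span 648.8 to 2058.4 kb, whereas the 6 genes with the largest excess of EpiSC-only peaks span 5.54 kb (Sox9) to 319.3 kb (Cux1). The activin-free-only peaks near them had a median GC of 37.3% to 37.8%. The most shared peaks were nearest to Auts2 (84), Odz2 (62), Cadm1 (61), Nrxn3 (59), Pard3 (57) and Plxna2 (56). Genes with more EpiSC-only than activin-free-only peaks as nearest numbered 6361, with a median length of 20.2 kb, and those with more activin-free-only peaks 7354, with a median length of 27.4 kb.

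Within 5 kb of a TSS, 11236 of 22350 protein-coding genes (50.3%) had a shared OTX2 peak. Another 1925 (8.61%) had EpiSC-only peaks alone and 1206 (5.40%) activin-free-only peaks alone. Within 50 kb, 90.7% of protein-coding genes had a shared peak, 71.1% an EpiSC-only peak and 69.8% an activin-free-only peak. The gene lists that follow were counted within 50 kb against these shares.

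The activin/Nodal pathway did not stand apart in how many of its genes had a peak. All 22 genes had a shared peak, 15 (68.2%) had an EpiSC-only and 15 an activin-free-only peak. In numbers of peaks, 54 EpiSC-only stood against 36 activin-free-only, where all protein-coding genes together had 46243 and 36808. More EpiSC-only than activin-free-only peaks were found at 12 genes and fewer at 9, where all protein-coding genes had 9894 and 8325, with 4131 equal. Among the ligands, Nodal had 8 shared, 5 EpiSC-only and 2 activin-free-only peaks, Gdf3 3, 1 and 2, Inhba, which codes for the subunit of activin A, 2, 0 and 3, Inhbb 1, 1 and 0, and Gdf1 2, 0 and 0. Tdgf1, the EGF-CFC co-receptor, had 7, 5 and 1. Among the antagonists, Lefty1 had 2, 4 and 0 and Lefty2 7, 4 and 1, with the same stretch of the genome counted for both genes. The other antagonists had the opposite balance, with 5, 0 and 4 at Cer1 and 2, 0 and 1 at Fst. Of the proprotein convertases, Furin had 6, 8 and 1 and Pcsk6 1, 0 and 2. Among the receptors, Acvr2a, with the most shared peaks of the list, had 17, 1 and 6, Acvr1b 4, 5 and 2, Acvr2b 3, 1 and 0, and Acvr1c 2, 0 and 1. Of the SMADs, Smad3 had 4 shared and 7 EpiSC-only peaks with no activin-free-only peak, while Smad2 had 5, 0 and 3 and Smad4 7, 1 and 5. Smad7, the inhibitory SMAD, had 3, 3 and 0 and Foxh1, the DNA-binding partner of SMAD2 and SMAD3, 8, 5 and 0.

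The mesendoderm list had 35 EpiSC-only and 19 activin-free-only peaks. All 16 genes had a shared peak, 14 (87.5%) an EpiSC-only and 11 (68.8%) an activin-free-only peak. Of all protein-coding genes, 71.1% had an EpiSC-only and 69.8% an activin-free-only peak. EpiSC-only peaks were the more numerous at 10 genes and activin-free-only peaks at 3, where all protein-coding genes had 9894 and 8325. T, the brachyury TF of the primitive streak, had 5 shared, 6 EpiSC-only and no activin-free-only peaks. Gata4, a GATA factor of endoderm, had the most shared peaks with 19, beside 5 and 2. Evx1, a homeodomain TF of the primitive streak, had 8 shared, 0 EpiSC-only and 3 activin-free-only peaks. Lhx1, a LIM homeodomain TF of the anterior mesendoderm, had 14 shared, 2 EpiSC-only and 1 activin-free-only peaks.

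The anterior neural plate list, with 21 genes found under their symbols of 22, had 30 EpiSC-only and 35 activin-free-only peaks. Of its genes, 16 (76.2%) had an EpiSC-only peak and 16 an activin-free-only peak, where all protein-coding genes had 71.1% and 69.8%. The list had more activin-free-only than EpiSC-only peaks at 10 genes and fewer at 6, and equal numbers at 5. All protein-coding genes had more at 8325 and fewer at 9894. Hesx1, a homeodomain repressor of the forebrain, had 10 shared, 3 EpiSC-only and 6 activin-free-only peaks, and Fezf2 9, 1 and 4. Six6 had 13, 0 and 1 and Sp8 15, 1 and 0. Zic5, Pax2, Six3 and Sp8 had EpiSC-only but no activin-free-only peaks.

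The pluripotency and epiblast list had 74 EpiSC-only and 31 activin-free-only peaks near its genes. Of its 22 genes found, 18 (81.8%) had an EpiSC-only and 13 (59.1%) an activin-free-only peak, where all protein-coding genes had 71.1% and 69.8%. There were more EpiSC-only peaks at 15 genes and more activin-free-only peaks at 5. Fgf4 had 6 shared, 9 EpiSC-only and no activin-free-only peaks, Nanog 8, 8 and 1, and Dnmt3b, the de novo DNA methyltransferase, 13, 7 and 4. Zscan10 had 10, 6 and 0, Pou3f1 6, 6 and 0, and Zic2 5, 5 and 0. Zfp42, a marker of the naive state, had 3 activin-free-only peaks and no other. Lin28b had 8, 0 and 6. Of the 21 gene records of the Wnt, BMP and FGF modulators, 18 (85.7%) had an EpiSC-only and 12 (57.1%) an activin-free-only peak. These modulators had 45 EpiSC-only and 23 activin-free-only peaks, with the former more numerous at 11 genes and the latter at 4. Among them were Id1, a BMP target, at 6, 8 and 2, Spry4, an FGF feedback inhibitor, at 0, 4 and 1, and Nog, a BMP antagonist, at 2, 2 and 5.

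For comparison, the 76 ribosomal protein genes, a housekeeping group, had 231 EpiSC-only and 109 activin-free-only peaks. Of these genes 82.9% had an EpiSC-only and 61.8% an activin-free-only peak, and 45 had more EpiSC-only and 19 more activin-free-only peaks. This split is much like that of the pluripotency and epiblast list, the mesendoderm list, and the Wnt, BMP and FGF modulators. Whether GC content or gene density accounts for the split of any of these lists was not tested.

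At the single loci described here, the strongest OTX2 peak of each list was shared. Peaks of a single list were not always weaker than the shared ones around them, since at Fgf5 an activin-free-only peak scored 261.2 against 102.2 for the weakest shared peak of that list, and at Nes an EpiSC-only peak scored 216.6 against 171.3. Around Nodal, 8 of 13 EpiSC peaks were shared. The peaks 11.7 kb and 7.75 kb upstream scored 410.9 and 412.7 in EpiSCs and 652.4 and 296.8 without activin, so the score without activin was higher at one and lower at the other. The 5 EpiSC-only peaks scored 50.5 to 117.5 and the 2 activin-free-only peaks 54.8 and 58.7.

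Around Otx2 itself, all 8 EpiSC peaks were shared and 4 activin-free-only peaks were added. The peak over the coding exons scored 3100 in both lists, which is the maximum of the EpiSC list. Other peaks also scored exactly 3100, among them that near Arid1b in EpiSCs and that near Stk35 without activin. The equal score therefore does not show an equal signal. The coding sequence was fully covered by peaks in both lists, against 15.9% and 34.2% of the introns more than 500 bp from it. The expression vector carries the Otx2 coding sequence, so peaks over these exons cannot be told apart from vector DNA and were left out of the ranking of peaks. The 4 activin-free-only peaks scored 52.9 to 72.4.

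Fgf5, a marker of the primed epiblast, had 3 shared peaks among its 4 EpiSC peaks, 38.9, 29.5 and 1.73 kb downstream of the TSS. The first 2 scored 521.7 and 343.5 in EpiSCs and 625.8 and 529.7 without activin. That 1.73 kb downstream scored 132.6 with and 102.2 without activin. An activin-free-only peak 23.1 kb downstream scored 261.2 with a window GC of 29.4%. Sox2 had 5 shared peaks, of which that 3.53 kb upstream scored 188.2 with and 528.3 without activin and that 7.29 kb upstream 462.8 and 451.4. Its 2 EpiSC-only peaks scored 68.3 and 51.9.

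Mycn, a proto-oncogene of epiblast and neural progenitors, had 7 shared peaks of 8, and each of the 7 scored higher without activin. Of all 71465 pairs of peaks that overlapped just each other, 68.9% scored higher without activin. The strongest Mycn peak, 41.2 kb upstream, scored 825.9 with and 1139.5 without activin. Sall4 had 7 shared peaks of 11, and 4 EpiSC-only peaks scoring 52.0 to 79.3. The intronic shared peak 4.32 kb downstream scored 1633.5 with and 2188.3 without activin, and that 23.2 kb upstream 183.8 and 205.9. The rest of its shared peaks scored lower without activin, with 377.4 against 209.5 at that 44.4 kb downstream. Pax6 had 8 shared EpiSC peaks of 9 and 4 activin-free-only peaks of 50.6 to 130.2.

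Nes and Nanog were the loci with the most EpiSC-only peaks. Nes, which codes for the intermediate filament nestin of neural progenitors, had 7 EpiSC-only peaks of 13, and the strongest, 16.4 kb upstream, scored 216.6. Its 6 shared peaks all scored lower without activin, with 436.8 against 236.8 at the strongest and 321.6 against 176.1 at the intronic peak 3.09 kb downstream. Nanog had 8 EpiSC-only peaks of 16, which scored 50.3 to 91. The shared peak at its promoter, 0.367 kb upstream, scored 210.1 with and 160.9 without activin. Those 34.7 and 39.2 kb downstream also scored lower without activin, with 180.3 against 154.2 and 212.4 against 81.3. The rest of its shared EpiSC peaks scored below the activin-free peak that they overlapped, with 57.8 against 131.4 at that 13.2 kb upstream. The GC of the windows at the Nanog EpiSC-only peaks was 43.3% to 49.8%.

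**Figure D5:**
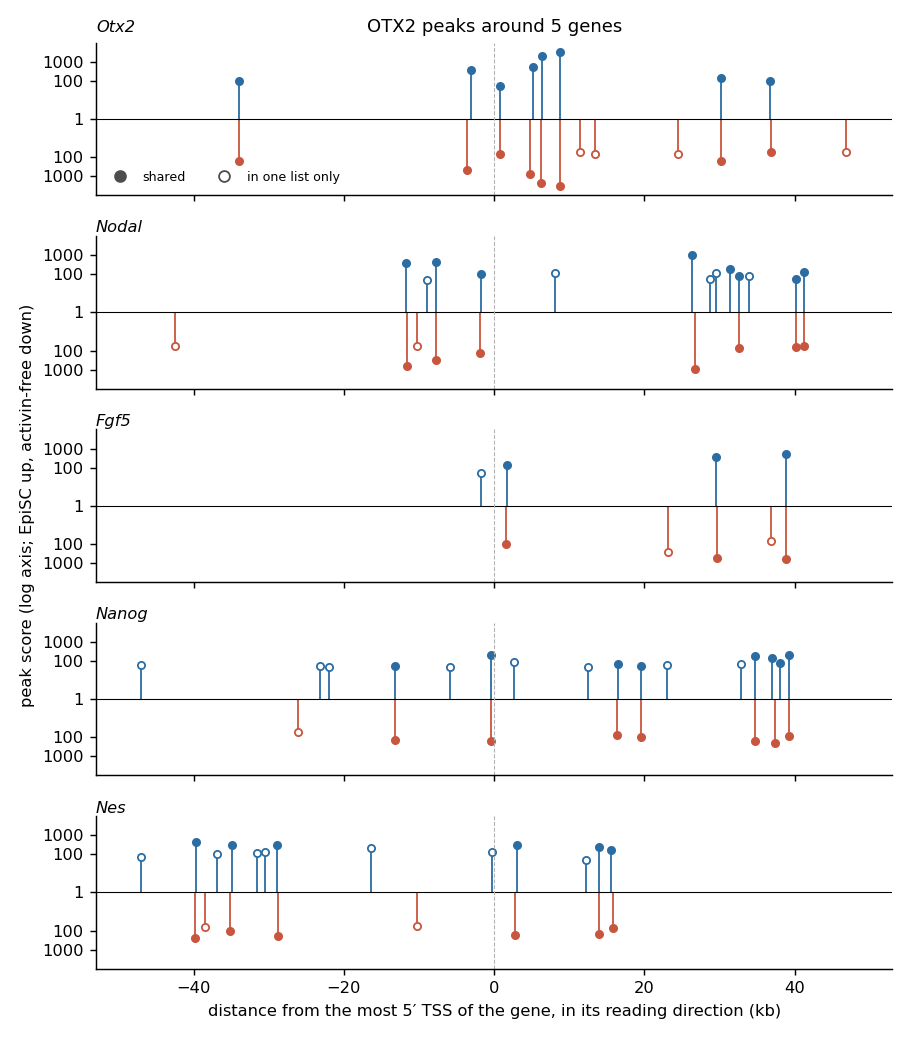
OTX2 peaks within 50 kb of Otx2, Nodal, Fgf5, Nanog and Nes, at their distance from the most 5′ TSS in the direction of transcription (horizontal axis, kb), with the height giving the score on a log axis, EpiSC peaks upwards and activin-free peaks downwards. Filled points are shared and open points are in a single list; around Nanog 8 open points stand upwards and 1 downwards, and around Otx2 none and 4.

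The highest-scoring peaks of each class, with those over the coding exons of Otx2 left out, were of a different kind from these loci. The 5 highest shared peaks scored 2069.7 or more in both lists, and lay near D15Ertd621e, 1700030F18Rik, Ctcf, Stk35 and Arid1b. The peak 368.0 kb upstream of Arid1b, chr17:4625791-4626957, overlapped a peak in each of the 8 lists of the other TFs, while those near D15Ertd621e and Stk35 overlapped none. A peak present in all 10 lists is not particular to OTX2. The 5 highest EpiSC-only peaks scored 263.9 to 340.5, were 1656 to 1946 bp wide and lay in or near Zmynd8, Ubfd1, Acox3, Hn1 and Prrc2c. None of them had TAATCC within 100 bp of the midpoint.

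The activin-free-only peaks were led by chr14:49372224-49373803, an intergenic peak 85.7 kb upstream of Otx2. It scored 3076.8, against 1134.3 for the next and 140.9 at the 90th percentile of its class, so it is not typical of these peaks, and the nearest EpiSC OTX2 midpoint was 1.86 kb away. It overlapped 2 lists of the other TFs. The lists hold no reads, and what reads lie under this peak in either culture was not tested. Of the next peaks, those that scored 1134.3, 702.3 and 526.2 lay nearest to 4930467E23Rik, Slc16a12 and Gm15319, where each overlapped 2 to 4 lists of other TFs and none had TAATCC at its midpoint. The first and last of these 3 lay close together on chromosome 8, and the last was 11045 bp wide.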

How the data were processed

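ChIP-seq of biotin-tagged TFs was carried out on 1 library per TF and culture, in both cultures. Per the labels, Bowtie2 was used for alignment, to the mm9 build, and peak calling was by MACS per the study's methods. The authors deposited 1 peak list per library, with a score for each peak, which is -10 times the log10 of the MACS p-value and starts at 50. Read counts are not part of these lists, so depth is unknown and no interval for it can be given. Coordinates were read as BED and are given 1-based. TSSs, exons and genes were taken from GENCODE vM1 and sequence from NCBIM37, both of the mm9 build.

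Overlaps, distances and base composition were computed with Python 3.11.15, numpy 2.4.6, pandas 2.3.3 and pysam 0.24.0. Shared peaks were represented by their EpiSC peak unless stated. Sequences were searched on both strands in the 100 bp on either side of each midpoint and in windows 1000 bp to either side. Genes were named by rule, as fixed loci, members of gene lists, and the 6 genes with the largest excess or the most shared peaks. Of the list members, those with the most peaks or with peaks of a single list were set to be named, and others, with their roles, were picked after their values were seen. The peaks and lists were chosen with earlier results of these data known. The GC band, the B1 context and the hexamer ranking were added after the values were seen. Sox1 and Tfcp2l1 were not found among protein-coding symbols, and Fgfr1 had 2 gene records, so 21 genes were counted for its list. The overlap and counting steps were checked on simulated lists with known overlaps. A few genes and regions that the rules name are not reported here.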

Additional observations from a re-analysis of the deposited data

How the results depend on the processing

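No paired analysis was possible because each culture had 1 library, and leaving out a replicate was not possible for the same reason. Of 51 alternatives to the 11 values, 15 stayed within the interval (within 1.5 times for gene counts) and 36 moved, and none changed the order of the classes or of the lists given in the report, except that with the 5-kb distance replaced by 50 kb more genes had activin-free-only than EpiSC-only peaks alone.
For the share of EpiSC peaks shared and of activin-free peaks shared, the values were 82.08% and 62.51% with scores of at least 100, 73.96% and 71.26% with the 50000 highest peaks of each list, 94.56% and 90.84% with these against all peaks of the other list, and 67.76% and 61.37% with a reciprocal overlap of 50%. With midpoints within 1000 bp, the EpiSC share was 77.63%.
For TAATCC in shared, EpiSC-only and activin-free-only peaks, a window of 50 bp gave 13.26%, 12.35% and 10.55%, and a GC of 40 to 45% (added after seeing the data) gave 25.64%, 23.64% and 21.11%. Scores of at least 100 gave 22.46%, 21.7% and 21.43%, where the EpiSC-only interval overlapped both others. Widths under 1000 bp gave 27.28% and 23.13% for shared and EpiSC-only peaks. Requiring no midpoint of the other list within 5 kb gave 23.2% and 21.31% for the EpiSC-only and activin-free-only peaks.
For peaks within 1 kb of a TSS in the same order, scores of at least 100 gave 8.871%, 13.27% and 4.187%, and protein-coding TSSs alone 6.876%, 10.35% and 2.983%. A GC of 40 to 45% gave 6.856% and 8.809% for shared and EpiSC-only peaks. Widths under 1000 bp gave 7.236% and 4.021% for shared and activin-free-only peaks. The 5-kb requirement gave 10.15% and 2.955% for the EpiSC-only and activin-free-only peaks.
Within 50 kb, the genes with a shared peak, with EpiSC-only peaks alone and with activin-free-only peaks alone numbered 20266, 197 and 738. The cause of these shifts was not tested.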
